A study of Mus musculus with 6 samples.

Results

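The genes that burn fatty acids in mitochondria and peroxisomes were followed in kidneys with a blocked ureter, from Cd248 knockout and wild type mice. The set was a list of 33 named genes of fatty acid oxidation and of the peroxisome, and all 33 were found by gene name among the 33679 genes of the deposited table. Messenger RNA had been sequenced from kidneys after unilateral ureteral obstruction, surgery that ties off a ureter and scars the kidney. Both groups, Cd248 KO and wild type (WT), carried the obstruction. The sources used here do not give strain, age, sex or days of obstruction. Values were available here for 1 KO library, replicate 1, and 3 WT libraries, and KO replicates 2 and 3 were not analysed here. The labels speak of pooled RNA and do not say that replicates came from separate animals, so the error below is the spread between 3 WT libraries, which may be technical, and each KO value is a single measurement.

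Fatty acids enter mitochondria as carnitine esters and are shortened there in a repeating cycle of dehydrogenation, hydration, a second dehydrogenation and thiolysis, whose electrons pass through the electron transfer flavoprotein to the respiratory chain. Peroxisomes run a parallel cycle on very long and branched chains and on dicarboxylic acids, start it with an oxidase that makes hydrogen peroxide, and destroy the peroxide with catalase. The Cyp4a enzymes of the endoplasmic reticulum make dicarboxylic acids by oxidising the far, omega end of the chain. Many of these genes are targets of PPAR alpha, a nuclear receptor for fatty acids, and the proximal tubule of the kidney, which relies on fatty acids as fuel, expresses them strongly.

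Most of the genes had their highest value in the KO library. The gap was small for most mitochondrial genes and larger for several peroxisomal genes and the Cyp4a genes. The WT values of those peroxisomal and Cyp4a genes also varied more than those of most mitochondrial genes. Levels are in FPKM, fragments scaled to transcript length and library size, and differences are KO minus the WT mean on the log2(FPKM + 1) scale, which understates changes of low genes. Of the 33 genes, 32 passed the filter of a mean of 0.5 FPKM, and the KO value lay above every WT library for 26, below every WT library for 0 and between WT libraries for 6. Over all 16871 genes tested, the share above every WT library was 28% and the share below was 31.2%. The median difference was 0.32 over the 32 genes and -0.0064 over all genes tested. None of the 32 passed limma's test (adjusted p between 0.466 and 0.997, and 0 at an unadjusted p under 0.05), where 0.64% of all genes tested were called higher and 0.083% lower, and 5.14% were higher at an unadjusted p under 0.05. The unadjusted count changed with the setting, most without WT replicate 1. Without that library it was 8 of the 32, against 10.1% of all genes in either direction, and with equal FPKM totals it was 2, against 10.9%. In 7 members KO was more than 1.5-fold the WT mean, as in 5.78% of all genes tested. With every library set to an equal FPKM total, which alone moved the median of all genes to -0.11, 20 of the 32 lay above every WT library and 6 below, against 13.8% above and 49.5% below over all genes. No p-value is given for these counts, since the genes share their libraries.

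**Figure D1:**
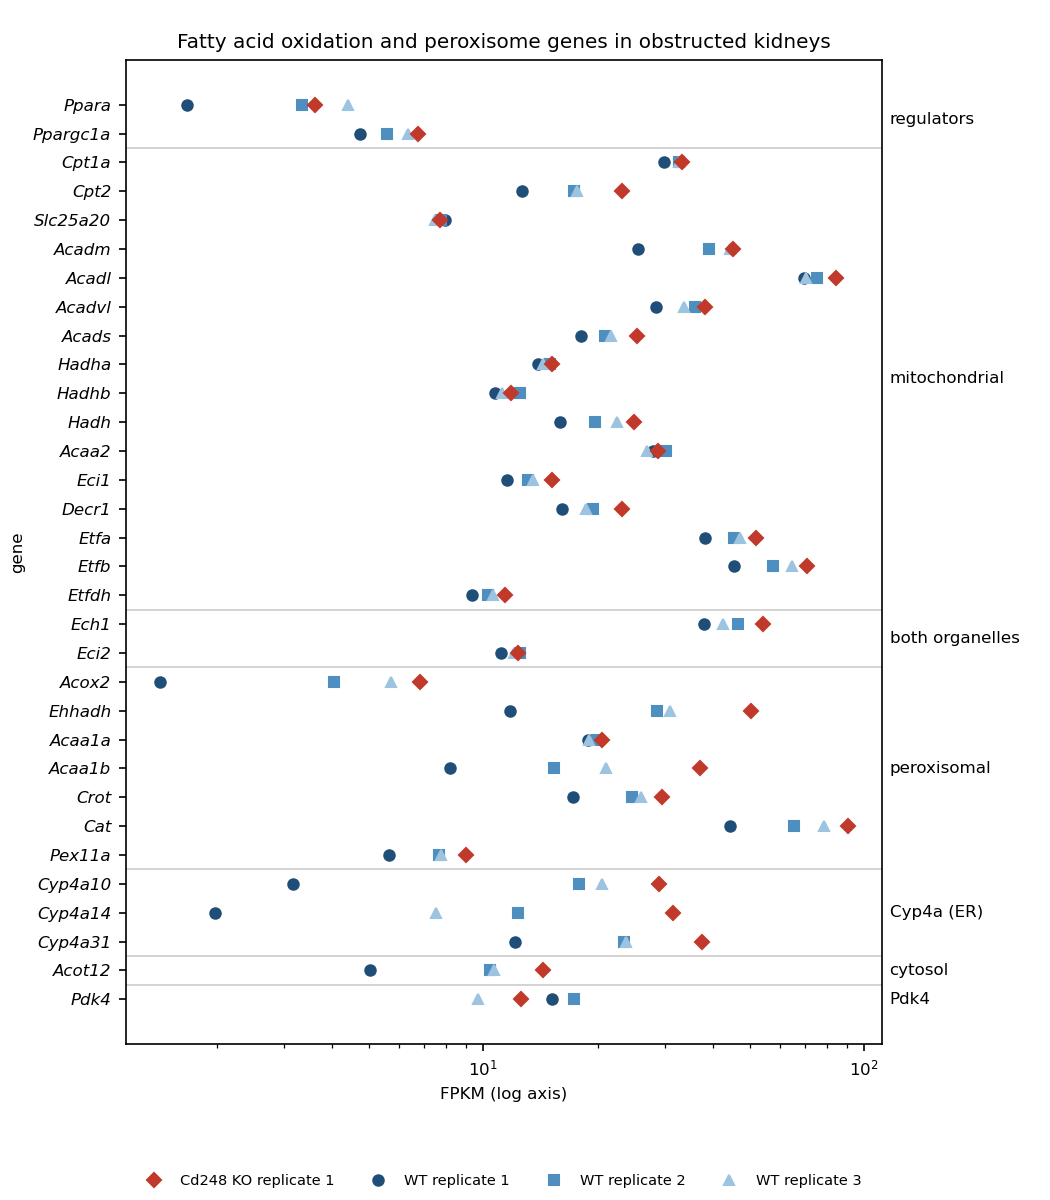
FPKM (log axis) of the 32 tested genes in the KO library (red diamonds) and in WT replicates 1, 2 and 3 (blue circles, squares and triangles), grouped by the compartment of the gene product. The red diamond is the rightmost symbol for 26 genes, and the dark blue circle of WT replicate 1 is the lowest WT symbol for 29.

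WT replicate 1 stood apart from the other WT libraries for these genes. It held the lowest of the 3 WT values for 29 of the 32, against 24.2% of all genes tested. The KO value exceeded that of WT replicate 1 for 30 of the 32 genes (40.8% of all genes tested), that of WT replicate 2 for 27 (49.5%) and that of WT replicate 3 for 31 (54.3%). Without WT replicate 1 the median difference of the 32 genes was 0.21, and 26 still lay above both remaining WT libraries, against 39.4% of all genes tested. The difference became more than 1.5 times smaller, or changed sign, for 19 of the 32 when that library was left out.

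Kidney markers were present and the targeted gene followed its label. Cd248 was listed at 0 FPKM in the KO library and at 9.03, 9.57 and 8.78 FPKM in WT replicates 1, 2 and 3. Summed FPKM of all genes was 304426 in the KO library and between 267394 and 285322 in the WT libraries, of which immunoglobulin genes took 5.52% in the KO library and 0.104% to 0.191% in the WT libraries. Read depth is unknown. For the marker counts that follow, the share over all genes tested was 28% above and 31.2% below every WT library. Limma called 0.64% of all genes tested higher and 0.083% lower. Of 20 proximal tubule markers, all detected, KO lay above every WT library for 8 and below for 0. WT replicate 1 was the lowest WT library for all 20, against 24.2% of all genes tested. The median difference of these 20 markers was 0.57, with 0 called. Injured tubule markers had a median difference of 0.035 (2 of 9 above every WT library, 2 below), distal nephron markers 0.13 (4 of 9 above, 0 below), macrophage markers -0.020 (0 of 9 above, 0 below), endothelial markers -0.38 (0 of 8 above, 8 below), fibroblast markers -1.01 (0 of 10 above, 9 below, 2 called lower) and plasma cell markers 1.79 (8 of 9 above, 1 below, 5 called higher). Of the adipocyte markers, Lep, Cidea and Ucp1 were listed at 0 in the KO library. Adipoq was at 0.33 FPKM in the KO library, against 0.04, 0.77 and 0.13 FPKM in the WT libraries. Cfd was at 3.66 FPKM in the KO library, against 0, 8.06 and 0 FPKM, and Cidec at 0.60 FPKM, against 0.06, 0.90 and 0.06 FPKM. Retn was at 0.13 FPKM in the KO library, against 0, 0.22 and 0.03 FPKM. Adipoq, Cfd, Cidec and Retn were thus highest in WT replicate 2 and next highest in the KO library, whereas Ucp1 was highest in WT replicate 1, at 0.08 FPKM. Whether fat tissue was part of WT replicate 2 or the KO library was not tested. Of the 10 adipocyte markers, 3 passed the filter with a median difference of 1.05, among them Cfd and Pck1, which the proximal tubule also makes. Hepatocyte markers had a median difference of 0.12 (0 of 5 above, 1 below), with Alb at 0.18 FPKM in the KO library and 0.02 to 0.11 FPKM in the WT libraries. Ribosomal protein genes had a median difference of -0.058 (0 of 12 above every WT library, 7 below).

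The regulators differed less than the WT libraries differed from each other. Ppara, the receptor itself, had 3.61 FPKM in the KO library, against 1.67, 3.34 and 4.42 FPKM in WT replicates 1, 2 and 3. The KO value thus lay inside the WT range, which spanned 2.65-fold, and the sign of the difference (0.21) turned without WT replicate 1 (-0.073). Ppargc1a, the coactivator PGC-1 alpha that drives mitochondrial biogenesis, had 6.73 FPKM in the KO library, against 4.76, 5.58 and 6.33 FPKM in the WT libraries. It lay 1.06-fold above the highest WT library (difference 0.24, limma adjusted p = 0.651; 0.15 without WT replicate 1).

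Carnitine shuttle genes were uneven. Cpt1a, the outer membrane transferase that sets the rate of entry, had 33.2 FPKM in the KO library, against 29.9, 32.6 and 32.7 FPKM in the WT libraries. Its 4 values lay close together, and the sign of its difference (0.065) turned with equal FPKM totals (-0.066) and under quantile normalization. Slc25a20, the carrier that exchanges carnitine and acylcarnitine across the inner membrane, had 7.72 FPKM in the KO library, against 7.95, 7.73 and 7.46 FPKM in the WT libraries. Cpt2, the inner membrane transferase that frees the acyl-CoA in the matrix, had 23.1 FPKM in the KO library, against 12.6, 17.3 and 17.7 FPKM in the WT libraries. Cpt2 had the largest difference of the 16 mitochondrial genes, 0.53 (SE 0.21; limma adjusted p = 0.496), and its KO value was 1.31-fold the highest WT value.

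Each acyl-CoA dehydrogenase, the enzymes of the opening step, was higher in the KO library than in any WT library, by 1.02-fold to 1.17-fold over the highest WT value. Acadl, the long-chain enzyme and the most abundant of the 4, had 84.1 FPKM in the KO library, against 69.3, 75.2 and 70.4 FPKM in the WT libraries. Acadm, the medium-chain enzyme, had 45.3 FPKM in the KO library, against 25.5, 39.2 and 44.3 FPKM in the WT libraries, so that WT replicates 1 and 3 differed more from each other than KO did from WT replicate 3. Acads, the short-chain enzyme, had 25.3 FPKM in the KO library, against 18.1, 20.9 and 21.7 FPKM in the WT libraries. Acadvl, the very-long-chain enzyme, had 38.2 FPKM in the KO library, against 28.4, 35.9 and 33.7 FPKM in the WT libraries. Their differences ran from 0.23 to 0.35, and none was called (limma adjusted p between 0.496 and 0.744). Without WT replicate 1 the difference of Acadm, the highest of the 4, was 0.12, and that of Acadvl was 0.13.

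The next steps of the mitochondrial cycle included genes that barely differed. Hadha and Hadhb encode the 2 subunits of the mitochondrial trifunctional protein, which carries out the remaining steps on long chains. Hadha had 15.2 FPKM in the KO library, against 13.9, 15.0 and 14.3 FPKM in the WT libraries. Hadhb had 11.8 FPKM in the KO library, against 10.7, 12.5 and 11.2 FPKM in the WT libraries. Both differences were small, 0.070 for Hadha and 0.042 for Hadhb, and both changed sign with equal FPKM totals. The subunit genes lie head to head on chromosome 5, and their RefSeq promoter windows (250 bases before to 50 after the start, GRCm38.p6, the build of mm10) overlap by 228 bases, so 1 window is shown for the pair, that of Hadhb (chr5:30155003-30155302, plus strand). It holds none of the elements searched below and is in lower case throughout.
Hadhb: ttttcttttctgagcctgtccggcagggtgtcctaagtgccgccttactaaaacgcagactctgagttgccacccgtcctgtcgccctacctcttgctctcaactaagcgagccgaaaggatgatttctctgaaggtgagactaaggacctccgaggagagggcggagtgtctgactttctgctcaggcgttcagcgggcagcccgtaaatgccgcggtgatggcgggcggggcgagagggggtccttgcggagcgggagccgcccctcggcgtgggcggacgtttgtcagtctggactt
Acaa2, the thiolase of the mitochondrial matrix, had 28.7 FPKM in the KO library, against 27.9, 30.1 and 27.0 FPKM in the WT libraries, inside the WT range. Hadh, which handles medium and short chains, had 24.9 FPKM in the KO library, against 15.9, 19.7 and 22.5 FPKM in the WT libraries (difference 0.36, limma adjusted p = 0.599; 0.23 without WT replicate 1). Relative to the WT mean, KO was at 1.05-fold for Hadha, 1.03-fold for Hadhb, 1.013-fold for Acaa2 and 1.29-fold for Hadh.

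Auxiliary and electron transfer genes lay above every WT library, each by a modest margin. Eci1, an isomerase for unsaturated chains, had 15.1 FPKM in the KO library, against 11.5, 13.1 and 13.5 FPKM in the WT libraries. Decr1, the 2,4-dienoyl-CoA reductase, had 23.1 FPKM in the KO library, against 16.1, 19.4 and 18.6 FPKM in the WT libraries, and had the lowest adjusted p of the 32 genes (difference 0.35, SE 0.13; limma adjusted p = 0.466). Etfa and Etfb encode the subunits of the electron transfer flavoprotein and Etfdh the enzyme that passes its electrons to ubiquinone. Etfb had 70.9 FPKM in the KO library, against 45.4, 57.7 and 64.5 FPKM in the WT libraries. Etfa stood at 1.19-fold and Etfdh at 1.13-fold of the WT mean, against 1.27-fold for Etfb. Of the isomerases found in both organelles, Ech1 had 54.2 FPKM in the KO library, against 38.0, 46.6 and 42.5 FPKM in the WT libraries. Eci2 had 12.4 FPKM in the KO library, inside the WT range of 11.1 to 12.5 FPKM.

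Peroxisomal genes reached higher ratios, and their WT values also spread more. All 7 lay above every WT library, against 28% of all genes tested. With equal FPKM totals it was 6, without Acaa1a, against 13.8% of all genes. Ehhadh, the bifunctional hydratase and dehydrogenase of the peroxisomal cycle, had 50.6 FPKM in the KO library, against 11.8, 28.6 and 31.0 FPKM in WT replicates 1, 2 and 3. The KO value was 4.30-fold that of WT replicate 1 but 1.63-fold that of WT replicate 3 (difference 1.17, SE 0.58; limma adjusted p = 0.560), and the difference was 0.75 without WT replicate 1. Acox2, the oxidase for branched chains and bile acid precursors, had 6.83 FPKM in the KO library, against 1.42, 4.06 and 5.73 FPKM in the WT libraries. Its WT values spanned 4.04-fold, and KO exceeded the highest by 1.19-fold (difference 0.85, limma adjusted p = 0.670; 0.42 without WT replicate 1). Crot, which makes carnitine esters of the shortened chains for export, had 29.4 FPKM in the KO library, against 17.3, 24.6 and 25.9 FPKM in the WT libraries. Cat, catalase, was the most abundant of the 33 genes in the KO library, at 90.5 FPKM, against 44.4, 65.2 and 78.5 FPKM in the WT libraries (difference 0.56, limma adjusted p = 0.617; 0.33 without WT replicate 1). Pex11a, a membrane protein of peroxisome division, had 9.01 FPKM in the KO library, against 5.64, 7.66 and 7.74 FPKM in the WT libraries.

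The thiolases Acaa1a and Acaa1b, near-identical enzymes of the last peroxisomal step, had unlike values. Acaa1b (ENSMUSG00000010651; mm10, chromosome 9, 119148023 to 119157093) had 37.1 FPKM in the KO library, against 8.18, 15.3 and 21.03 FPKM in the WT libraries. Acaa1a (ENSMUSG00000036138; chromosome 9, 119339676 to 119350299) had 20.5 FPKM in the KO library, against 18.8, 19.9 and 19.0 FPKM in the WT libraries. Acaa1b was 1.77-fold above its highest WT library and varied 2.57-fold among the WT libraries, whereas the 4 values of Acaa1a lay within 1.09-fold of each other (differences 1.36, SE 0.51, for Acaa1b and 0.084, SE 0.084, for Acaa1a; limma adjusted p = 0.470 for Acaa1b and 0.757 for Acaa1a). Whether they differ from each other was not tested. Their longest coding transcripts in GENCODE M21 were 90.7% identical over 1636 aligned bases and shared 35.5% of 50-base windows, so reads could be split between them and single values are uncertain. Their RefSeq promoter windows are shown because the transcripts are so alike and the values are not: the longest run shared by the windows on the same strand was 8 bases. Capitals mark CCAAT boxes (CCAAT on the gene's strand, ATTGG on the other).
Acaa1b, chr9:119157044-119157343, minus strand: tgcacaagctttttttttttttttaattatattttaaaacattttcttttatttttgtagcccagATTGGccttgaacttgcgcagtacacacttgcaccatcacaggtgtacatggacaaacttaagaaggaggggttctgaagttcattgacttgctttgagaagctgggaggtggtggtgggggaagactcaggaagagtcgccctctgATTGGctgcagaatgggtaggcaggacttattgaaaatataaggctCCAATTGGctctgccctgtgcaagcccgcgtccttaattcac
Acaa1a, chr9:119341044-119341343, plus strand: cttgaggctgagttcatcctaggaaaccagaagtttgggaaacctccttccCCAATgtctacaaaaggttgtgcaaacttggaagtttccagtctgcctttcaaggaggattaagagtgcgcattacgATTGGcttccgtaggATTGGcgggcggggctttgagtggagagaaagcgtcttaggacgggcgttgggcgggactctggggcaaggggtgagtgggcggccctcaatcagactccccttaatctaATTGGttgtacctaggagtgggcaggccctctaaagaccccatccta
Ehhadh, chr16:21787785-21788084, minus strand: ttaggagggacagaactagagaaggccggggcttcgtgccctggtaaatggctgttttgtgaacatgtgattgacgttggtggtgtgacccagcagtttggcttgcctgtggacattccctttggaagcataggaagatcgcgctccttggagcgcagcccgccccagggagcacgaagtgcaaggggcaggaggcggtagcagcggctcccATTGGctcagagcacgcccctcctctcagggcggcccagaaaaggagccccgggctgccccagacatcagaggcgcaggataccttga
Acaa1b and Acaa1a each held 4 CCAAT boxes, of which the last pair in Acaa1b overlap, and Ehhadh held 1.

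Cyp4a14, an omega-hydroxylase, had the largest difference of the 32 genes. It (ENSMUSG00000028715; chromosome 4, 115486200 to 115496142) had 31.4 FPKM in the KO library, against 1.98, 12.3 and 7.51 FPKM in WT replicates 1, 2 and 3. It was 2.55-fold above the highest WT library and 4.32-fold the WT mean, and its WT values spanned 6.22-fold (difference 2.22, SE 0.87; limma adjusted p = 0.488). Cyp4a10 had 29.0 FPKM in the KO library, against 3.16, 17.9 and 20.6 FPKM in the WT libraries, 1.41-fold above the highest (difference 1.33, SE 1.04; limma adjusted p = 0.694). Without WT replicate 1 its difference was 0.57. Cyp4a31 had 37.4 FPKM in the KO library, against 12.1, 23.4 and 23.7 FPKM in the WT libraries, 1.58-fold above the highest (difference 0.95, SE 0.42; limma adjusted p = 0.521). The 3 genes are neighbours on chromosome 4. Cyp4a31 and Cyp4a10 transcripts were 95.7% identical and shared 12.8% of 50-base windows of Cyp4a31, so their values are uncertain, while Cyp4a14 shared 0% with either. The transcript of Cyp4a32, which is not a member, was closer still. It was 97.2% identical to Cyp4a10 and 96.0% to Cyp4a31, and shared 34.8% and 25.7% of its 50-base windows with them.

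The remaining members were a cytosolic thioesterase, a kinase and a binding protein. Acot12, a cytosolic acetyl-CoA thioesterase, had 14.4 FPKM in the KO library, against 5.05, 10.4 and 10.7 FPKM in the WT libraries, 1.34-fold above the highest. Pdk4, the kinase that turns off pyruvate dehydrogenase when fat is burned, had 12.6 FPKM in the KO library, against 15.2, 17.3 and 9.68 FPKM in the WT libraries. Pdk4 was the only tested member with a negative difference, -0.11, which turned to 0.050 without WT replicate 2, and 1 of the 3 in which WT replicate 1 was not the lowest WT library. Fabp1, the liver-type fatty acid binding protein, did not pass the filter, with 0.14 FPKM in the KO library and 0.00, 0.18 and 0.45 FPKM in the WT libraries.

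Set side by side, peroxisomal genes had a median difference of 0.56 (7 genes, range 0.084 to 1.36) and mitochondrial genes one of 0.23 (16 genes, range 0.0015 to 0.53). The KO library lay above every WT library for 7 of 7 peroxisomal and 13 of 16 mitochondrial genes, against 28% of all genes tested. With equal FPKM totals these counts were 6 and 9, against 13.8% of all genes. The medians were then 0.43 and 0.10, where the median of all genes was -0.11. Without WT replicate 1 the medians were 0.33 for peroxisomal and 0.15 for mitochondrial genes. Each gene was centred on its mean over the libraries, and the peroxisomal median minus the mitochondrial median was taken per library. It was 0.25 in the KO library, against -0.38, 0.020 and 0.16 in WT replicates 1, 2 and 3. The KO library was the highest, but WT replicate 1 lay farther from the rest, and the exact two-sided permutation test over the 4 libraries gave p = 0.50, where 0.25 is the smallest it can give (difference 0.31). A design of 1 against 3 cannot reach the threshold, so this test shows neither a difference between the compartments nor its absence. In summed FPKM, peroxisomal genes came to 0.478 of the mitochondrial sum in the KO library, against 0.282, 0.366 and 0.413 in the WT libraries.

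**Figure D2:**
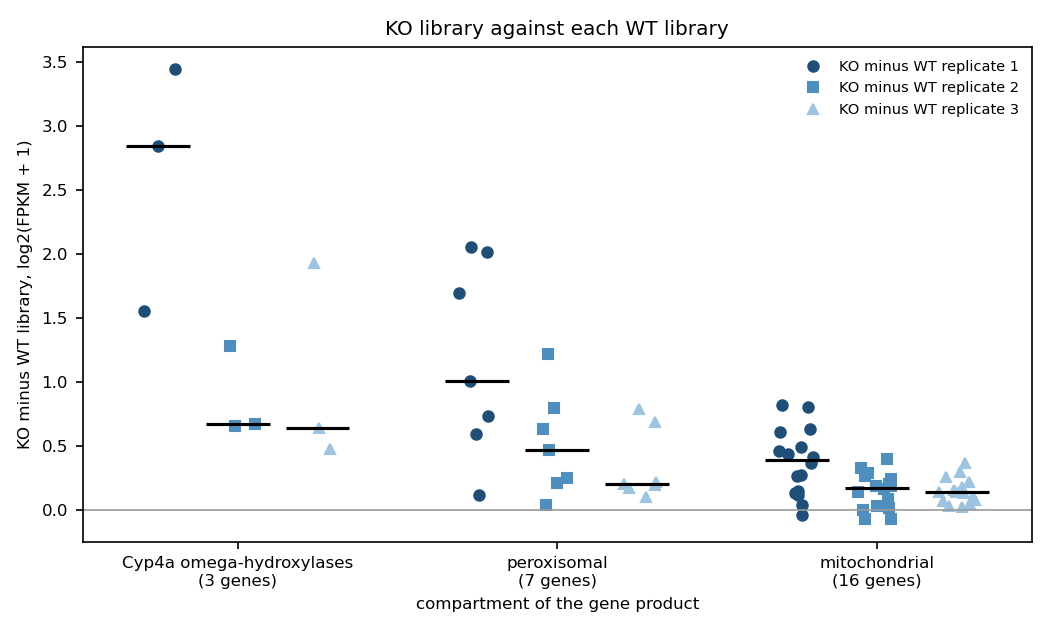
Difference of the KO library from each WT library on the log2(FPKM + 1) scale for the 3 Cyp4a genes, 7 peroxisomal genes and 16 mitochondrial genes, 1 symbol per gene and black bars at the medians. The peroxisomal medians lie above the mitochondrial ones against each WT library, and the gaps to WT replicate 1 (dark circles) are the widest.

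Proximal tubule markers varied between the libraries along with these genes, and in whole kidney RNA fewer tubule cells and less RNA per cell cannot be told apart. The summed FPKM of the 20 markers was 4208 in the KO library, against 1261, 3356 and 5075 in WT replicates 1, 2 and 3, so the KO library lay between WT replicates 2 and 3. The mitochondrial genes summed to 510 FPKM in the KO library, against 381, 452 and 457 FPKM in the WT libraries. The peroxisomal genes summed to 244 FPKM in the KO library, against 107, 165 and 189 FPKM, and the Cyp4a genes to 97.9 FPKM in the KO library, against 17.2, 53.6 and 51.7 FPKM. Against WT replicate 3, the library richest in tubule markers, KO was higher for 8 of the 20 markers, for 31 of the 32 fatty acid genes and for 54.3% of all genes tested. The median gap to WT replicate 3 was -0.061 for the markers, 0.18 for the 32 genes and 0.021 for all genes tested. The part of the varying marker levels in the gaps to any of the WT libraries was not tested. Transcripts of the mitochondrial genome summed to 48806 FPKM in the KO library, against 33703, 42412 and 48227 FPKM in the WT libraries. Of these 13 genes, 6 lay above every WT library (28% of all genes tested), with a median difference of 0.23.

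Divided by the marker sum, the KO library lay outside the WT range for the Cyp4a genes only. The Cyp4a sum was 0.0233 of the marker sum in the KO library, against 0.0137, 0.0160 and 0.0102 in the WT libraries, above all of them. The peroxisomal sum was 0.0580 of it in the KO library, against 0.0853, 0.0493 and 0.0372, inside the WT range. The mitochondrial sum was 0.121 of it in the KO library, against 0.302, 0.135 and 0.0901, also inside. Kap, an androgen-responsive gene of the proximal tubule, made up 79.8% to 84.6% of the marker sum. Without Kap, a choice made after the values were seen, the Cyp4a ratio was 0.130 in the KO library, against 0.0676, 0.10 and 0.0662 in the WT libraries. The KO ratio for peroxisomal genes was then 0.323, and the WT ratios ran from 0.242 to 0.422. That for mitochondrial genes was 0.675 in the KO library, against 1.49, 0.844 and 0.585 in WT replicates 1, 2 and 3, again inside. Because ratios of sums rest on the most abundant genes, they describe these libraries and carry no test.

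**Figure D3:**
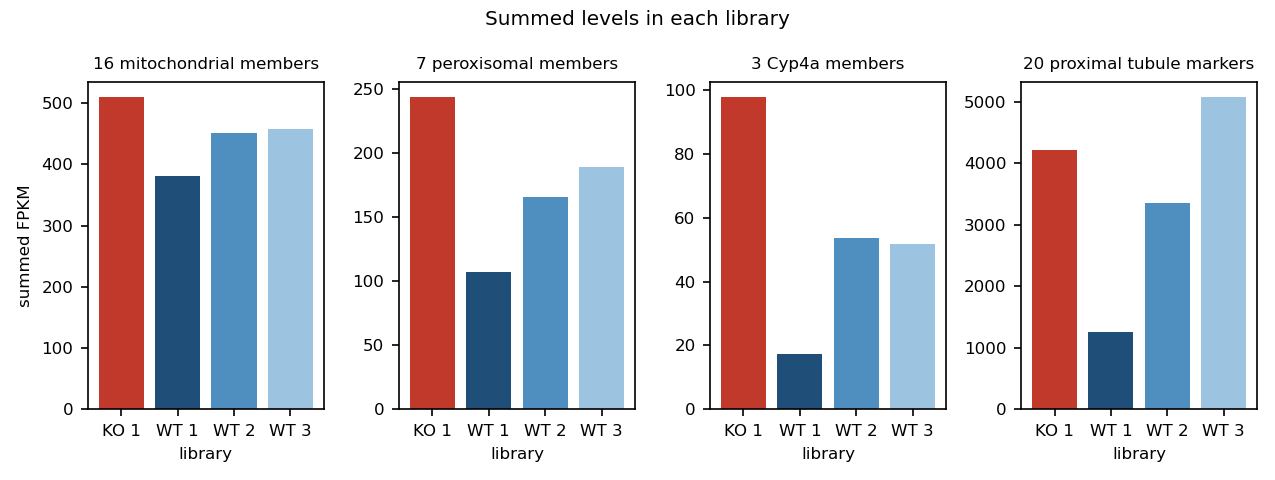
Summed FPKM in each library for the 16 mitochondrial, 7 peroxisomal and 3 Cyp4a genes and for the 20 proximal tubule markers (bars from 0; KO in red, WT replicates 1 to 3 in blue). The KO bar is the tallest in the 3 gene panels and lies below WT replicate 3 for the tubule markers.

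Other genes of the same pathways were described in the same way, and none of them was called by limma. Their lists were chosen with earlier results of these data known and come from the same libraries. The counts are thus descriptions and no independent support. Among 22 further genes of peroxisomal oxidation, KO lay above every WT library for 17 and below for 0 (28% and 31.2% of all genes tested). Their median difference was 0.30, with 0 called. Acot4, a peroxisomal thioesterase, had 5.05 FPKM in the KO library, against 2.55, 3.25 and 3.65 FPKM in the WT libraries. Amacr, the racemase for branched chains, had 14.4 FPKM in the KO library, against 6.28, 9.97 and 13.02 FPKM in the WT libraries. Pecr, a peroxisomal enoyl-CoA reductase, had 27.9 FPKM in the KO library, inside the WT range of 9.64 to 31.8 FPKM. At the low end of that list, Acot6 and Abcd4 had differences of 0.080 and 0.082, the last of which changed sign with equal FPKM totals.

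Peroxisomal enzymes outside oxidation lay above every WT library for 11 of 12 tested genes (median difference 0.37, 0 called). The share over all genes tested was 28% above and 31.2% below. Ephx2, a soluble epoxide hydrolase, had 56.2 FPKM in the KO library, against 22.6, 35.2 and 37.7 FPKM in the WT libraries. Pipox, which oxidises pipecolic acid and sarcosine, had 56.9 FPKM in the KO library, against 30.9, 34.7 and 42.9 FPKM. Hao2, a hydroxyacid oxidase, had 38.5 FPKM in the KO library, against 21.3, 27.9 and 30.1 FPKM. The genes of ether lipid synthesis differed least, with differences of 0.19 for Far1, 0.15 for Agps and 0.069 for Gnpat, whose sign changed with equal FPKM totals. The peroxins and membrane proteins that build the organelle had a median difference of 0.11 (12 of 22 above every WT library, 1 below, 0 called). Pxmp4, a membrane protein, had 14.8 FPKM in the KO library, against 7.86, 11.7 and 12.0 FPKM in the WT libraries, and Pex16 had 11.2 FPKM, against 8.49, 8.17 and 9.76 FPKM. Pxmp2 had a difference of 0.30, and the import factors Pex26, Pex13 and Pex19 had differences of -0.087, -0.020 and -0.020, the last 2 of which turned without WT replicate 3.

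Further genes of mitochondrial oxidation were mixed, with 16 of 31 above every WT library and 4 below (28% and 31.2% of all genes tested). Their median difference was 0.22, with 0 called. Acsm3 and Acsm2, medium-chain acyl-CoA synthetases, had the highest differences, 0.98 and 0.69 (0.28 and 0.24 without WT replicate 1), and wide WT ranges, 2.77 to 17.3 FPKM for Acsm3 and 22.5 to 74.0 FPKM for Acsm2. Acot13, a thioesterase, had 43.7 FPKM in the KO library, against 26.8, 27.4 and 39.8 FPKM in the WT libraries. Cpt1b, the muscle form of the entry transferase, had 1.83 FPKM in the KO library, against 2.46, 2.69 and 2.41 FPKM, and Cpt1c, the brain form, had 2.15 FPKM, against 2.69, 2.78 and 2.93 FPKM. Acsf2, another acyl-CoA synthetase, had 8.32 FPKM in the KO library and 8.87 to 10.4 FPKM in the WT libraries.

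Known PPAR alpha targets outside the 33 genes lay above every WT library for 12 of 17 and below for 1 (28% and 31.2% of all genes tested). Their median difference was 0.43, with 0 called. Cd36, a fatty acid transporter, had 39.3 FPKM in the KO library, against 14.3, 22.5 and 29.6 FPKM in the WT libraries, and Cyp4a12a, another omega-hydroxylase, had 3.60 FPKM, against 0.44, 2.17 and 2.27 FPKM. Angptl4, a lipase inhibitor, and G0s2 and Plin2, proteins of the lipid droplet, had differences of -0.25, -0.20 and -0.078, and that of Plin2 turned without WT replicate 1. The receptors and coregulators themselves had a median difference of -0.018, with 6 of 20 above every WT library and 7 below (0 called). These counts were near the shares over all genes tested. Hnf4a, a tubule transcription factor that is also among the 20 tubule markers, had 61.2 FPKM in the KO library, against 28.1, 43.1 and 48.9 FPKM in the WT libraries. Sirt3, the mitochondrial deacetylase, had a difference of 0.44, and the orphan receptor Esrrg one of 0.37. Pprc1, a relative of PGC-1 alpha, had 4.87 FPKM in the KO library, against 6.97, 6.53 and 6.33 FPKM. Ppard and the corepressor Nrip1 also lay below every WT library, with differences of -0.25 and -0.20.

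Fatty acid synthesis genes had a median difference of -0.032, with 2 of 12 above every WT library and 3 below (0 called). The share over all genes tested was 28% above and 31.2% below. Scd2, a desaturase, had 27.6 FPKM in the KO library, against 37.9, 36.6 and 35.0 FPKM in the WT libraries. Fasn, fatty acid synthase, had 6.01 FPKM in the KO library, against 6.84, 7.27 and 6.64 FPKM, and Elovl6, an elongase, had a difference of -0.13. Mlxipl, the carbohydrate-response factor ChREBP, had 22.0 FPKM in the KO library, against 11.3, 12.7 and 15.7 FPKM, and Me1, malic enzyme, had 44.3 FPKM, against 21.8, 31.4 and 37.0 FPKM. Dgat2 had a difference of 0.15, which turned without WT replicate 1.

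**Figure D4:**
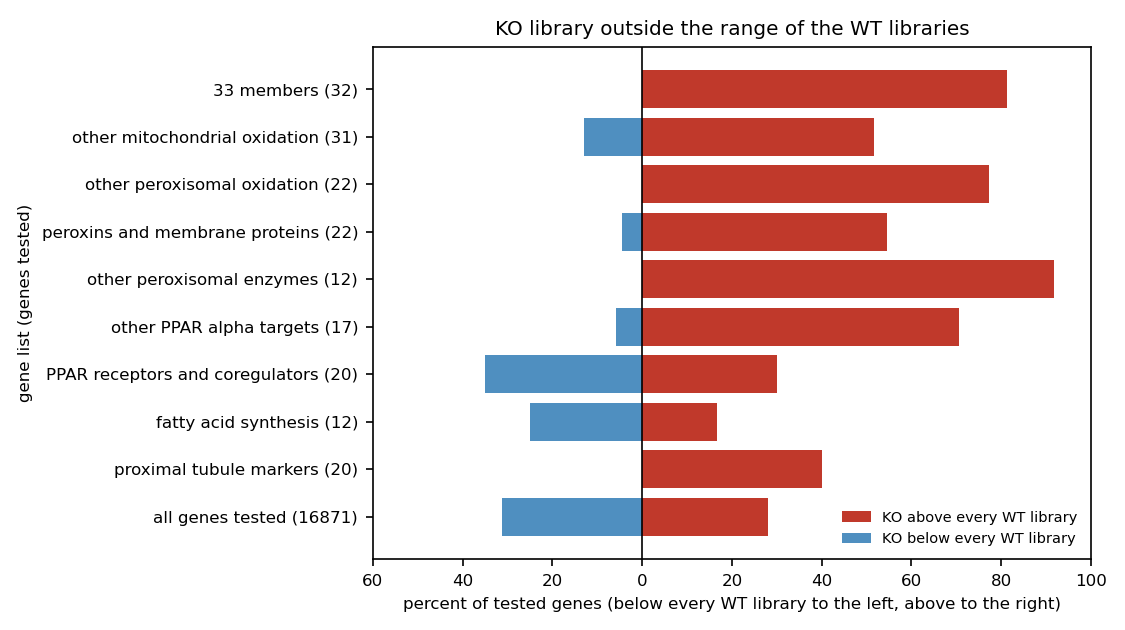
Percent of tested genes of each list whose KO value lies above every WT library (red, right of 0) or below every WT library (blue, left of 0), with the number of genes tested in parentheses. The 33 members (26 of 32 above) and the other peroxisomal enzymes (11 of 12) reach far right, and the PPAR receptors and coregulators (6 of 20 above, 7 below) lie near all genes tested (28% above, 31.2% below).

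The annotation terms in the deposited table were read with the 33 genes taken out. Over all genes tested, KO lay above every WT library for 28% and below every WT library for 31.2%. In the KEGG term Peroxisome, KO lay above every WT library for 44 of 70 genes and below for 5 (median difference 0.18). In Fatty acid degradation it was 16 of 25 above and 4 below (0.22). In PPAR signaling pathway it was 19 of 49 above and 12 below (0.10), a share of 38.8% above, the nearest of these terms to that of all genes. In the GO term fatty acid beta-oxidation it was 16 of 24 above and 3 below (0.22), and in protein import into peroxisome matrix 6 of 11 above and 1 below (0.088). None of the genes in these terms was called by limma; at an unadjusted p under 0.05 there were 6, 3, 8, 4 and 0 in either direction, where 10.8% of all genes tested had such a p. These terms overlap each other and the lists above.

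In the authors' deposited table, 2 of the 33 genes were marked as significant, Acaa1b (fold change 2.50, q-value 0.02) and Cyp4a14 (fold change 4.33, q-value 0.01). The same table marked 0.285% of its genes as significant and up. Cyp4a31 and Ehhadh followed in the authors' deposited table with q-values of 0.09 and 0.12. The sources used here do not say which test gave those values, and limma, which takes its spread from the WT libraries and from other genes, called neither Acaa1b nor Cyp4a14 (adjusted p = 0.470 and 0.488).

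RefSeq promoter windows were found for 28 of the 33 genes, among them all 7 peroxisomal genes and 14 of 16 mitochondrial ones. PPAR alpha binds a direct repeat with a spacing of a single base, and the repeat AGGTCANAGGTCA was searched on both strands, as were a relaxed form AGGNCANAGGNCA, which includes it, the single element AGGTCA, which both may contain, the estrogen-related receptor element TCAAGGTCA, which contains AGGTCA, and CCAAT. The strict repeat was in 0 of the 28 genes' windows and in 0.0481% of all 27025 genes with windows. The relaxed repeat was in 1 of 28, Fabp1, and in 0.451% of all genes. Its window (chr6:71199629-71199928, plus strand) is shown with the repeat (TGACCTATGGCCT on the gene's strand, starting 67 bases before the start site) and a further single element in capitals.
Fabp1: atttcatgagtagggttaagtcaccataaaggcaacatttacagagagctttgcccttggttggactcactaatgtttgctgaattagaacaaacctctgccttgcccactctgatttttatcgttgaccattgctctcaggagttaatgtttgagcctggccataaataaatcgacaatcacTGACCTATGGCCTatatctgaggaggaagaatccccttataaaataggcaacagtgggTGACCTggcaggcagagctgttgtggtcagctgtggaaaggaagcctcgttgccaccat
The single element AGGTCA was in 6 of 28 (18.1% of all genes) and the estrogen-related receptor element in 0 of 28 (0.466%). CCAAT was in 13 of 28 (41.1% of all genes), in 6 of 7 peroxisomal and 5 of 14 mitochondrial windows. These are matches of letters in short windows, and the windows of the Cyp4a genes were not in the table used.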

How the data were processed

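Kidney RNA was taken up in Trizol and its poly(A) fraction selected, per the labels' protocols. The submitters' processing notes name cutadapt 1.9, FastQC, HISAT2 2.0.4 and mm10, without roles. The authors deposited FPKM per gene, rounded to 2 decimals, for 1 KO and 3 WT libraries, by a program that the sources used here do not name. The authors' deposited ratio (fold change), its log2, and their p-value and q-value columns come from a test those sources leave unnamed. Groups came from sample titles, which name 6 samples. The table holds no counts. A search of low values for steps of whole reads ended at the edge of its range in every library, so it could not show whether there were steps. Depth is thus unknown and no counting intervals are given.

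The 16871 genes averaging 0.5 FPKM or more across the 4 libraries were analysed as log2(FPKM + 1) with limma 3.58.1 in R 4.3.3 (empirical Bayes with a trend in the prior variance, 2 residual and 2.32 prior degrees of freedom, two-sided, Benjamini-Hochberg over all genes, threshold 0.05). With 1 KO library the fit assumes that it varies like the WT libraries. The members, lists, compartments and the rule for named genes (all members, and in each pathway list the 3 highest and 3 lowest differences among genes of at least 1 FPKM) were chosen with earlier results of these data known. Some genes are in more than 1 list. Some genes that the rule names are not reported here. Gene positions are from GENCODE M21 and promoter windows from RefSeq, both on the mm10 build. Alternatives covered the pseudocount, filter, scaling, quantile normalization, trend, each WT library and the organelle of Ech1 and Eci2.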

Additional observations from a re-analysis of the deposited data

How the results depend on the processing

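None of the 32 tested genes was called by limma under any of the 10 refitted alternatives, including no filter, where Fabp1 entered with a difference of -0.069 and was not called. Over those alternatives the sign of the difference turned for 9 of the 32, none of them called. With equal FPKM totals it was -0.066 for Cpt1a, -0.12 for Slc25a20, -0.056 for Hadha, -0.082 for Hadhb, -0.11 for Acaa2, -0.069 for Eci2 and -0.044 for Acaa1a, and among other genes -0.020 for Abcd4 and -0.059 for Gnpat. Without immunoglobulin genes in the total it was -0.048 for Slc25a20, -0.0087 for Hadhb and -0.034 for Acaa2. Under quantile normalization it was -0.0032 for Cpt1a, -0.018 for Slc25a20 and -0.042 for Acaa2. Leaving out 1 WT library gave ranges that crossed 0: -0.073 to 0.44 for Ppara, -0.020 to 0.021 for Slc25a20, -0.0022 to 0.099 for Hadhb, -0.014 to 0.063 for Acaa2, -0.34 to 0.050 for Pdk4, -0.055 to 0.026 for Pex13, -0.089 to 0.034 for Pex19, -0.16 to 0.067 for Plin2 and -0.066 to 0.32 for Dgat2. With a pseudocount of 0.1 FPKM the median difference of the 32 genes was 0.34. With equal FPKM totals the mitochondrial median became 0.10 and 6 members lay below every WT library (49.5% of all genes), where the main analysis had 0; the median of all genes moved by the same scaling, and relative to it the members stood at 0.31 and the mitochondrial genes at 0.22. Scaling without immunoglobulin genes gave a median of 0.27 with 23 above every WT library (19.9% of all genes), and quantile normalization gave 0.25 with 24 above (24.3%) and 1 below (38%). Leaving out 1 WT library gave 0 to 2 members below (34.8% to 41.7% of all genes), median differences of 0.21 to 0.37 for all members, 0.15 to 0.28 for mitochondrial and 0.33 to 0.74 for peroxisomal genes, the lowest of each without WT replicate 1, and a peroxisomal minus mitochondrial difference of 0.22 to 0.45. Counting Ech1 as mitochondrial and Eci2 as peroxisomal gave 0.22 for that difference. Over all genes, limma called 122 genes, and between 39 and 205 under the alternatives, with 39 at a pseudocount of 0.1 FPKM, 205 with no filter, and 53, 73 and 45 without WT replicate 1, 2 and 3. The causes were not tested. No paired analysis was possible because the KO group has 1 library in the table, so the groups share fewer than 2 replicate numbers. Leaving out the KO library was not possible for the same reason.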
